A study of Mus musculus with 6 samples.

Results

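Colonies grown from the embryonic gonad, labelled PGC (primordial germ cell) colonies, were compared with colonies grown from the newborn testis, labelled GSC (glandular stem cell) colonies. The comparison was read across all genes on 4 of the 6 single-colour microarrays of the series: the 2 arrays titled PGC colony at E11.5 and the 2 arrays titled GSC colony at 2 days after birth. Of 26423 probes, 21876 carried 1 gene symbol. They stood for 19084 genes, of which 15459 were bright enough to be tested and 3625 were not.

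All mice were of strain ICR, and the labels name no transgene or deletion in any group. For the PGC colonies, total gonadal cells of 67 embryos at E11.5 were plated, and for the GSC colonies total testicular cells of 80 mice aged newborn to P2. Both grew for 7 days under 5% O2 in MCDB-201 medium with insulin, transferrin and selenium, on laminin at 200 ng/cm2 and with EGF (epidermal growth factor) at 10 ng/ml, and colonies were picked before RNA was prepared. Neither starting suspension was purified, animals were pooled, and the labels give no sex for the embryos. The remaining 2 arrays held uncultured testicular cells of 100 mice aged newborn to P2, selected with magnetic beads for CD49f, the product of Itga6. The titles of these arrays call the cells CD49f+ GSC and their oxygen condition physiological hypoxia. The sorted cells are given beside the colonies as a reference level.

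At E11.5 the mouse gonad is a ridge on the ventral side of the mesonephros, the transient embryonic kidney. It holds primordial germ cells that arrived by migration and a somatic epithelium and mesenchyme that have only begun to take a testicular or ovarian fate. By birth the testis has cords of Sertoli cells enclosing gonocytes, wrapped by contractile peritubular myoid cells, with Leydig cells, macrophages, vessels and fibroblasts between the cords. Laminin with EGF and no serum is a medium in which stromal and epithelial cells can attach and spread as well as stem cells.

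Levels below are normalized log2 intensities, so that a difference of 1 is 2-fold, and differences are PGC colonies minus GSC colonies with the standard error (SE) of the fit. A level of 7.82, the filter level, is the 30th percentile of an array and serves as the limit below which a level is only a bound. A gene was called when its limma p-value, adjusted by Benjamini-Hochberg over all 15459 genes, was under 0.05. With 2 arrays a group the p-values measure only how these arrays vary. That variation may be technical, because separate cultures are not stated for them.

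Of the 15459 genes 2329, or 15.1%, were called. The 1095 genes higher in PGC colonies were 7.08% of those tested and the 1234 lower genes 7.98%. These shares are the background for the counts of list members below. A difference of at least 2-fold was reached by 312 of the higher genes (2.02%) and 487 of the lower ones (3.15%). The 2 arrays of each colony group did not overlap for 8767 genes (56.7%). The call counts depended on how many arrays entered the fit and on which ones. With only the 4 colony arrays 698 genes were higher and 931 lower. Leaving out an array leaves fewer degrees of freedom, so a count below that falls without it need not be due to that array. Array 1 and array 2 of the GSC colonies differed by more than 4-fold for 56 genes in one direction and 139 in the other, against 3 and 10 genes for the PGC colonies. The typical spread went the other way. The scaled median absolute deviation of the log2 difference between the arrays was 0.172 for GSC colonies and 0.296 for PGC colonies. Colonies are mixtures measured in bulk, so fewer cells of a type and less RNA per cell cannot be told apart in any value below.

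**Figure D1:**
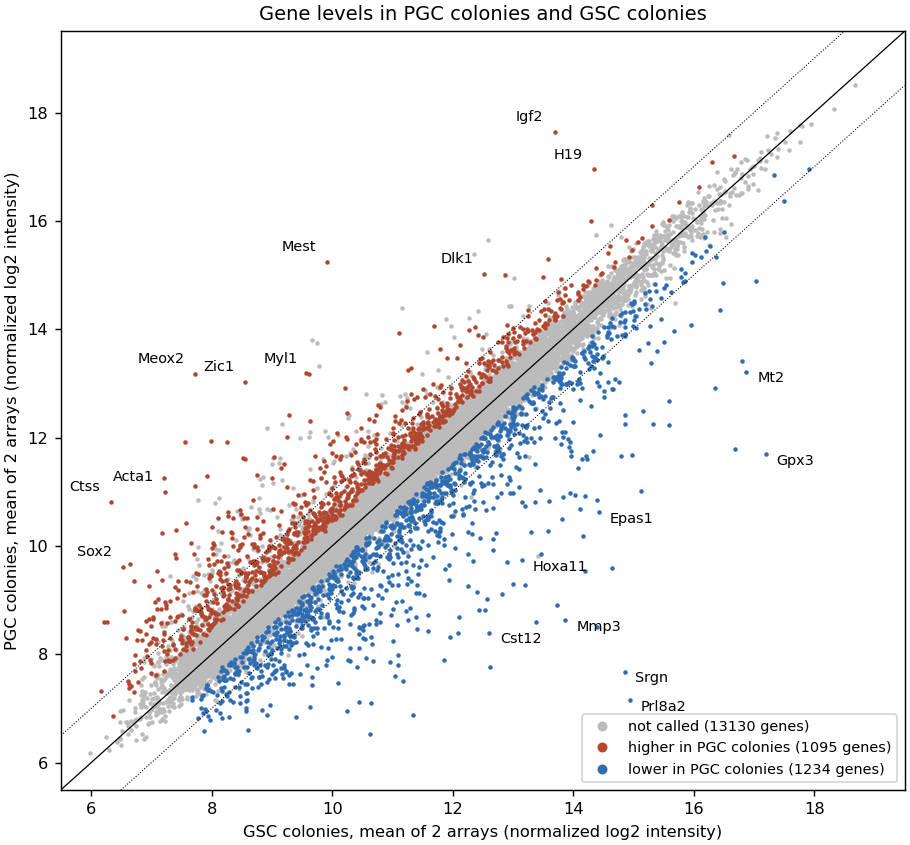
Mean normalized log2 intensity of each of the 15459 tested genes in GSC colonies (horizontal axis, 2 arrays) and PGC colonies (vertical axis, 2 arrays), with called genes in red (1095 higher) and blue (1234 lower) and dotted lines at a 2-fold difference. Grey points beyond the dotted lines are genes whose arrays within a group differed too much to be called, and Mest, Meox2 and Igf2 stand far above the diagonal as Prl8a2 and Srgn stand far below it.

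Among the 15 genes with the largest rise was Zic1, a zinc finger transcription factor of the dorsal neural tube and somites. It measured 13.06 and 12.98 in PGC colonies and 8.84 and 8.28 in GSC colonies. Both PGC colony arrays lay far above both GSC colony arrays, and the sorted cells (8.28 and 8.62) were about as low as the GSC colonies. The difference was 4.46 ± 0.21 (adjusted p = 9.4e-05). Zcchc12, a zinc knuckle protein of developing brain, had levels of 13.07 and 13.31 against 9.89 and 9.26, a difference of 3.62 ± 0.22 (adjusted p = 0.00022). Sstr2, a somatostatin receptor, had 11.59 and 11.01 against 7.82 and 8.02, at the filter level in GSC colonies, and differed by 3.38 ± 0.20 (adjusted p = 0.00021), against 2.76 by its second probe. Tnmd, which encodes the tendon membrane protein tenomodulin, had 12.33 and 12.50 against 9.32 and 9.25 and differed by 3.13 ± 0.12 (adjusted p = 4.6e-05).

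Some leading genes were not measured above the filter level in GSC colonies. Rad51d, a homologous recombination gene, had 11.39 and 11.12 in PGC colonies and 7.17 and 7.23 in GSC colonies, which is at least 10.8-fold higher. Ctss, the lysosomal protease cathepsin S of macrophages and other antigen-presenting cells, had 10.66 and 10.96 against 6.38 and 6.28, at least 7.96-fold higher. Here "at least" sets the brighter group against the filter level. Both genes were brighter than this level in sorted cells, Ctss at 12.27 and 12.30 and Rad51d at 9.01 and 9.16. Lat, a T cell signalling adaptor, also ranked among the 15 largest rises, but its GSC colony arrays read 6.20 and 9.25. Its call (adjusted p = 0.0499) was lost under 13 of 17 alternative settings.

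Among the 15 genes with the largest fall was Srgn (serglycin), a proteoglycan of secretory granules. It was at 14.87 and 14.84 in GSC colonies, at 7.69 and 7.67, under the filter level, in PGC colonies and at 10.81 and 10.69 in sorted cells, and PGC colonies were at least 131-fold lower. Prl8a2, a member of the prolactin hormone family made by decidua, was at 14.86 and 15.03 in GSC colonies and at 7.21 and 7.09, under the filter level, in PGC colonies, which is at least 140-fold lower. Of 25 prolactin family genes listed, 17 were on the array and 4 were tested, and Prl8a2 alone was called. Fgl2, a secreted fibrinogen-like protein, had 8.60 and 8.40 in PGC colonies against 14.36 and 14.42, a difference of -5.89 ± 0.12 (adjusted p = 7.9e-06). Medag, a gene of fat cell formation, had 9.35 and 9.83 against 14.76 and 14.52 and differed by -5.05 ± 0.21 (adjusted p = 5.8e-05). In each case the PGC colony arrays lay far below the GSC colony arrays.

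Lbp, which binds bacterial lipopolysaccharide, read 8.79 and 9.02 in PGC colonies against 13.76 and 13.69, a difference of -4.83 ± 0.13 (adjusted p = 1.9e-05). Pi15, a secreted peptidase inhibitor, read 10.98 and 11.04 against 15.21 and 15.04, a difference of -4.12 ± 0.11 (adjusted p = 1.9e-05), and its second probe gave -3.09. The related protease inhibitors Ctla2a and Ctla2b differed by -4.90 and -4.78 on the log2 scale, and the second probe of Ctla2b gave -3.50. They are near-identical copies, and whether their probes read one or both genes was not checked. PGC colonies were at least 11.4-fold lower for Angptl7, a secreted angiopoietin-like protein, and at least 6.97-fold lower for the endogenous retroviral gene Erv3.

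A pair of genes on the list of largest falls was as bright or brighter in the uncultured sorted cells than in GSC colonies. Tex19.2, a germ cell and placenta gene, had 9.65 and 9.44 in PGC colonies, 14.15 and 14.25 in GSC colonies and 14.56 and 14.59 in sorted cells. Cst12, a cystatin-type protease inhibitor of the testis, had 8.31 and 8.49, 12.56 and 12.66, and 17.02 and 16.94 in the same order. The PGC colonies were the lowest of the 3 groups for both. The differences between the colony groups were -4.66 ± 0.12 for Tex19.2 and -4.21 ± 0.12 for Cst12 (adjusted p = 1.9e-05 for each).

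**Figure D2:**
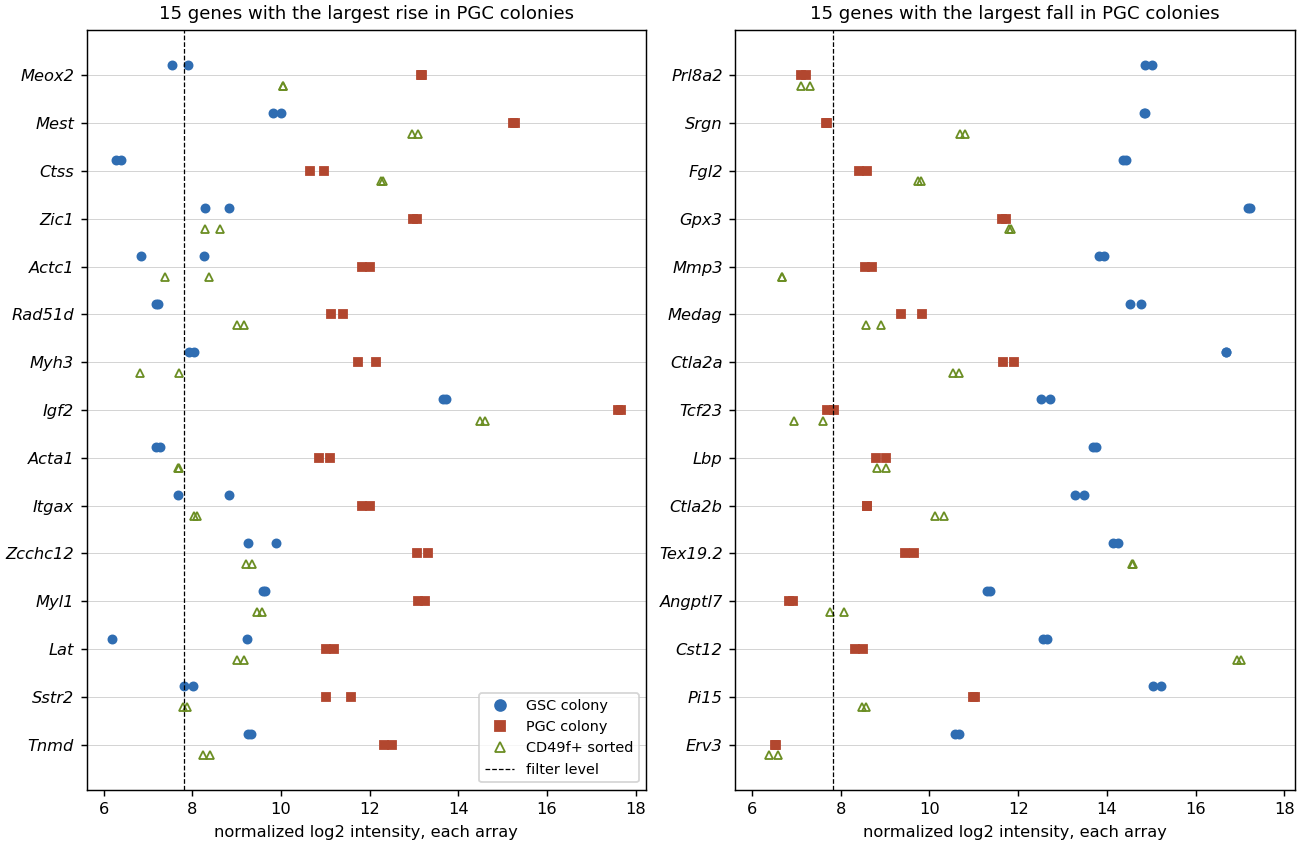
Normalized log2 intensity on each array (horizontal axis) for the 15 called genes with the largest rise (left) and the 15 with the largest fall (right) in PGC colonies. Circles are GSC colonies, squares PGC colonies and triangles CD49f+ sorted cells, 2 arrays each, and the dashed line is the filter level of 7.82; Lat and Actc1 show the widest spread between the GSC colony arrays.

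Of 32 tested members of the striated muscle list 18 were higher and 0 were lower (against 7.08% and 7.98% of all genes), and the median difference was 0.71 against 0.01 over all genes. Over the 17 alternative settings 14 to 18 members were higher and 0 lower, and at an unadjusted p under 0.05 the counts were 19 and 3. Contractile and metabolic genes made up most of it: 14 of 19 were higher, with a median of 1.43, whereas 4 of 13 regulators were. The summed level of the 32 genes, taken as log2 of the sum of their linear levels, was 16.47 and 16.31 in PGC colonies, 15.03 and 14.96 in GSC colonies and 15.04 and 14.91 in sorted cells.

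The contractile genes differed widely. Myl1, a fast-fibre myosin light chain, had 13.25 and 13.10 in PGC colonies and 9.64 and 9.59 in GSC colonies. The sorted cells, at 9.58 and 9.45, were close to the GSC colonies. The difference was 3.56 ± 0.12 (adjusted p = 2.5e-05), and the second probe of Myl1 gave 2.37. Acta1, skeletal alpha-actin, read 10.87 and 11.12 against 7.27 and 7.17, at least 9.02-fold higher. Myh3, the embryonic myosin heavy chain, had 12.14 and 11.74 against 7.93 and 8.04, close to the filter level, and differed by 3.96 ± 0.29 (adjusted p = 0.00047). Actc1, cardiac alpha-actin, which skeletal muscle also makes before birth, had 12.01 and 11.84 against 8.27 and 6.85, so that 1 of the GSC colony arrays was below the filter level (adjusted p = 0.0027).

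Among the regulators, Myog (myogenin, the factor that drives terminal muscle differentiation) read 11.06 and 11.11 in PGC colonies and 9.21 and 9.29 in GSC colonies. The groups were well apart, with a difference of 1.84 ± 0.14 (adjusted p = 0.0005). Myod1, the factor that commits cells to the muscle fate, had 8.68 and 8.87 against 8.22 and 7.86. Its difference of 0.73 ± 0.18 (adjusted p = 0.042) lost its call under 7 of 16 alternative settings. Eya1, a transcriptional cofactor in muscle and kidney precursors, had 11.55 and 10.94 against 9.03 and 8.99, a difference of 2.24 ± 0.21 (adjusted p = 0.0013). Pax7 and Myf5, which mark muscle precursors, were under the filter.

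The starts of striated muscle genes are shown for the 3 with the largest differences, for Myl1 and for the regulator Myog. Each sequence covers 300 bases around the annotated start, most of them upstream, and comes from RefSeq (mouse build GRCm38.p6). Capitals mark E-boxes, CANNTG, the motif bound by myogenin and related factors, and CArG boxes, the motif bound by serum response factor. E-boxes read the same on both strands.
Myog, chr1:134289754-134290053, plus strand: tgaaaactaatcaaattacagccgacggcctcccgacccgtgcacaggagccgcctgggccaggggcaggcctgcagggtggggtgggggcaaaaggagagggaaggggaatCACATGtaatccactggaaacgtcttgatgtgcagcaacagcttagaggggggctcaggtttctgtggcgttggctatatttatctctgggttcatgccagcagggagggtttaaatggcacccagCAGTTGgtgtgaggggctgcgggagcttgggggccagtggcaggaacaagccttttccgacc
Acta1, chr8:123894726-123895025, minus strand: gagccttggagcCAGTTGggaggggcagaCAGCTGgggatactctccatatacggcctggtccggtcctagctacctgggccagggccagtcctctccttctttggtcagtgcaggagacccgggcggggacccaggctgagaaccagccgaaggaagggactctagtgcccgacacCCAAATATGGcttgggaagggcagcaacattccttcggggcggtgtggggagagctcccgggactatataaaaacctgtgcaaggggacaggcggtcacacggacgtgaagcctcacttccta
Actc1, chr2:114052826-114053125, minus strand: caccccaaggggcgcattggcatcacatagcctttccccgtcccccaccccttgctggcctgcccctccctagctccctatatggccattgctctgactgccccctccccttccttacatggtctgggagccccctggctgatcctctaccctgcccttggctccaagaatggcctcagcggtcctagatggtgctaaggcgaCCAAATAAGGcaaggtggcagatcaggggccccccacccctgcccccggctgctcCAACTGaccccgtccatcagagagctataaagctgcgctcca
Myh3, chr11:67078050-67078349, plus strand: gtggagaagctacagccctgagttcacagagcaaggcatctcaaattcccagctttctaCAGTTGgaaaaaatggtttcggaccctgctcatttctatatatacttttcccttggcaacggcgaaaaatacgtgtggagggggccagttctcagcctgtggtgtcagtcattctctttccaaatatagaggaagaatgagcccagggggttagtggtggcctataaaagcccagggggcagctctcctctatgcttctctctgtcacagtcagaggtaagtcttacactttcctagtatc
Myl1, chr1:66945007-66945306, minus strand: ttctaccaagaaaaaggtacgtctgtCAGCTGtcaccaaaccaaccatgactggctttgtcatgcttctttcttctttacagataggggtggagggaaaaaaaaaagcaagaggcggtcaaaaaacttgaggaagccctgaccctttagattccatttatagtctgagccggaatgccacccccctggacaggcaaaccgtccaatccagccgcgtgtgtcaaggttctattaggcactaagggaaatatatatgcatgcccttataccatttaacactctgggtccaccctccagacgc

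Myog and Acta1 held 2 E-boxes each in this window, and Actc1, Myh3 and Myl1 held 1 each. A CArG box was found in Acta1 and in Actc1. E-boxes are common: 65.7% of the 12251 tested genes with a promoter in the table held at least 1, against 13 of the 14 higher muscle genes with a promoter (92.9%). The more restricted E-box CAGCTG was held by 15.7% of all tested genes and by 4 of the 14 (28.6%), and the CArG box by 1.33% and by 2 of the 14. These are matches of letters in a window and show no binding. Whether a shared regulator has a part in the rise of these genes was not tested.

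Smooth muscle genes went the other way. Of 13 tested members of the smooth muscle and peritubular myoid list, 7 were lower in PGC colonies and 0 higher, with a median difference of -0.67. Myh11, the smooth muscle myosin heavy chain, had 8.43 and 8.20 in PGC colonies and 12.02 and 11.90 in GSC colonies. Des, the intermediate filament desmin, which both kinds of muscle make, had 10.35 and 10.63 against 13.87 and 13.74. The PGC colonies were far below the GSC colonies for both, by -3.65 ± 0.13 for Myh11 (adjusted p = 3.1e-05) and -3.32 ± 0.15 for Des (adjusted p = 7.8e-05). Mylk, the kinase that activates smooth muscle myosin, had 13.18 and 12.88 against 14.80 and 14.72, and the sorted cells (14.46 and 14.15) were near the GSC colonies. The summed level of the list was 17.03 and 16.89 in PGC colonies and 17.37 and 17.64 in GSC colonies, a smaller gap than that of single members, since the very bright Acta2 and Cald1 dominate a sum. Over the alternative settings 6 to 9 members were lower and 0 to 2 higher.

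**Figure D3:**
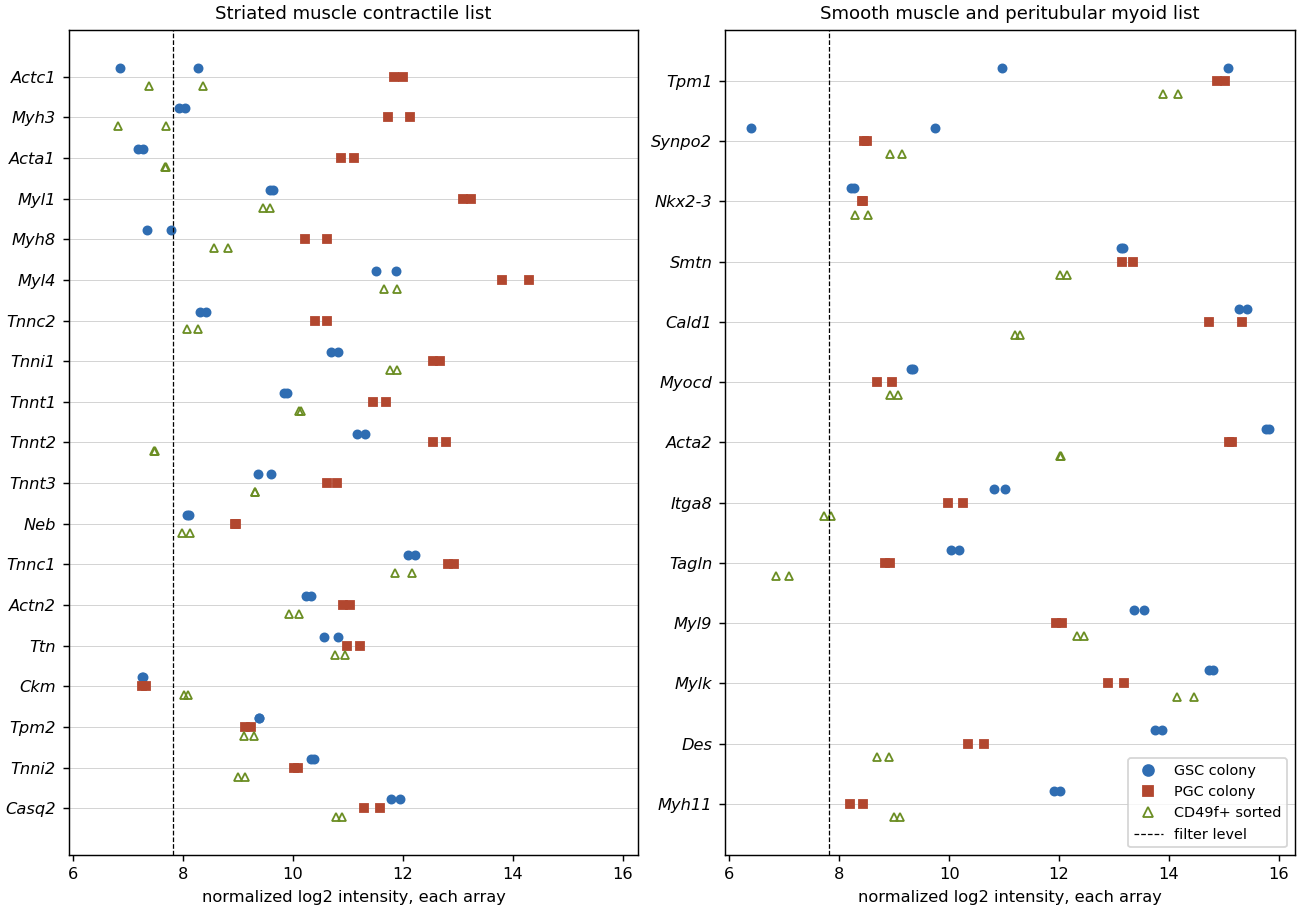
Normalized log2 intensity on each array (horizontal axis) for the contractile and metabolic genes of the striated muscle list (left) and the smooth muscle list (right), with genes ordered by the difference between colony groups. Circles are GSC colonies, squares PGC colonies and triangles sorted cells, 2 arrays each, with the filter level dashed; 14 of 19 striated genes were called higher in PGC colonies and 7 of 13 smooth muscle genes lower, and Tpm1 and Synpo2 show GSC colony arrays far apart.

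Skeletal tissue genes were also higher in PGC colonies. Of 17 tested cartilage, tendon and bone genes 9 were higher and 1 was lower, with a median of 0.54. Scx, the tendon transcription factor scleraxis, had 13.24 and 13.24 in PGC colonies and 11.26 and 11.24 in GSC colonies, a difference of 1.99 ± 0.11 (adjusted p = 0.00017). Sorted cells were as bright as the PGC colonies, at 13.78 and 13.62. Hapln1, which links hyaluronan to cartilage proteoglycans, had 9.30 and 9.77 against 7.36 and 6.83, at least 3.28-fold higher. The exception was the fibrillar collagen Col11a1, with 10.97 and 11.00 against 12.97 and 13.04 (difference -2.02 ± 0.10, adjusted p = 0.00013). The count of higher members was 5 without either sorted array and 4 without PGC colony replicate 2.

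Of 20 tested neuronal and neural crest genes 10 were higher and 1 lower, with a median of 0.55. Gap43, a growth cone protein, had 12.82 and 13.00 in PGC colonies and 10.35 and 10.07 in GSC colonies, a difference of 2.70 ± 0.14 (adjusted p = 0.00011). Stmn2, a neuronal microtubule regulator, had 9.56 and 9.70 against 8.36 and 8.18 (difference 1.36 ± 0.12, adjusted p = 0.00098). Nefl, the light neurofilament, was at least 1.84-fold higher, and Map2, a dendritic microtubule protein, was lower by -0.69 ± 0.12 (adjusted p = 0.014). The call of Map2 was lost without GSC colony replicate 1 or either PGC colony array, where the list had 0 lower members. The count of higher genes was 6 without GSC colony replicate 1, 4 without PGC colony replicate 1 and 5 without PGC colony replicate 2.

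Transcription factors that give cells their position in the body split between the groups. Outside the Hox clusters 16 of 42 tested members were higher in PGC colonies and 4 lower, with a median of 0.21, and 12 to 19 were higher and 3 to 6 lower over the alternative settings. Meox2, a homeobox factor of somites and limb muscle, had 13.16 and 13.18 in PGC colonies against 7.91 and 7.55 in GSC colonies, whose mean was under the filter level (adjusted p = 1.9e-05). Foxd1, a forkhead factor of kidney stroma, had 14.19 and 13.67 against 11.11 and 11.11, a difference of 2.82 ± 0.18 (adjusted p = 0.00025). Sox2, known from pluripotent and neural progenitor cells, had 9.44 and 9.77 against 6.46 and 6.59 and was at least 3.45-fold higher. It was listed with the pluripotency genes and is not among the 16. Isl1, a LIM-homeobox factor of motor neurons and limb mesenchyme, rose by 1.12 ± 0.11 (adjusted p = 0.0013).

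The lower factors are known from kidney, heart and limb. Irx1, an Iroquois homeobox factor, had 8.62 and 8.81 in PGC colonies and 11.54 and 11.64 in GSC colonies, a difference of -2.87 ± 0.13 (adjusted p = 8.1e-05). Osr2, a zinc finger factor of the palate and limb, had 11.53 and 11.79 against 14.03 and 14.39, a difference of -2.55 ± 0.16 (adjusted p = 0.00026). Tbx3, a T-box factor with roles in limb and heart, had 10.93 and 11.15 against 13.51 and 13.37, a difference of -2.40 ± 0.12 (adjusted p = 0.00013). Sorted cells lay below the PGC colonies for the 4 lower factors.

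Hox genes, whose order along a chromosome follows their order of use along the body axis, differed by cluster. Of 29 tested Hox genes 2 were higher and 9 lower, and 6 of the 9 were in the Hoxa cluster. Hoxa11 had 9.68 and 9.80 in PGC colonies and 13.19 and 13.11 in GSC colonies, a difference of -3.41 ± 0.12 (adjusted p = 2.9e-05). Hoxa10 had 10.05 and 10.45 against 13.36 and 13.23, a difference of -3.04 ± 0.17 (adjusted p = 0.0002). Hoxa9 was at -1.96 ± 0.12 (adjusted p = 0.00021), Hoxa7 at -1.44 ± 0.15 (adjusted p = 0.002) and Hoxa5 at -0.56 ± 0.12 (adjusted p = 0.026, lost under 6 alternative settings). Between paralogue number and difference Spearman's rho was -0.93 over the 8 tested Hoxa genes, 0.30 over 9 Hoxb genes, -0.90 over 5 Hoxc genes and -0.32 over 7 Hoxd genes. The genes of a cluster share their arrays and are neighbours, and the order carries no test.

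The remaining clusters did not show differences of this size. In the Hoxb cluster Hoxb9, with 11.05 and 11.17 against 10.34 and 10.14, and Hoxb8, with 9.52 and 9.11 against 8.31 and 8.46, were higher in PGC colonies (differences 0.87 ± 0.12 and 0.93 ± 0.16, adjusted p = 0.0059 and 0.012). The lowest Hoxc difference was -0.698 and the lowest Hoxd difference -0.505. In uncultured sorted cells Hoxa11 (7.11 and 6.96), Hoxa10 (7.47 and 7.19) and Hoxa9 (7.20 and 7.34) were all under the filter level, and Hoxa7 was at 10.17 and 10.13. Both colony groups were thus above the sorted cells for each of these genes. Leaving out 1 colony array brought the lower Hox genes down from 9 to between 4 and 5.

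**Figure D4:**
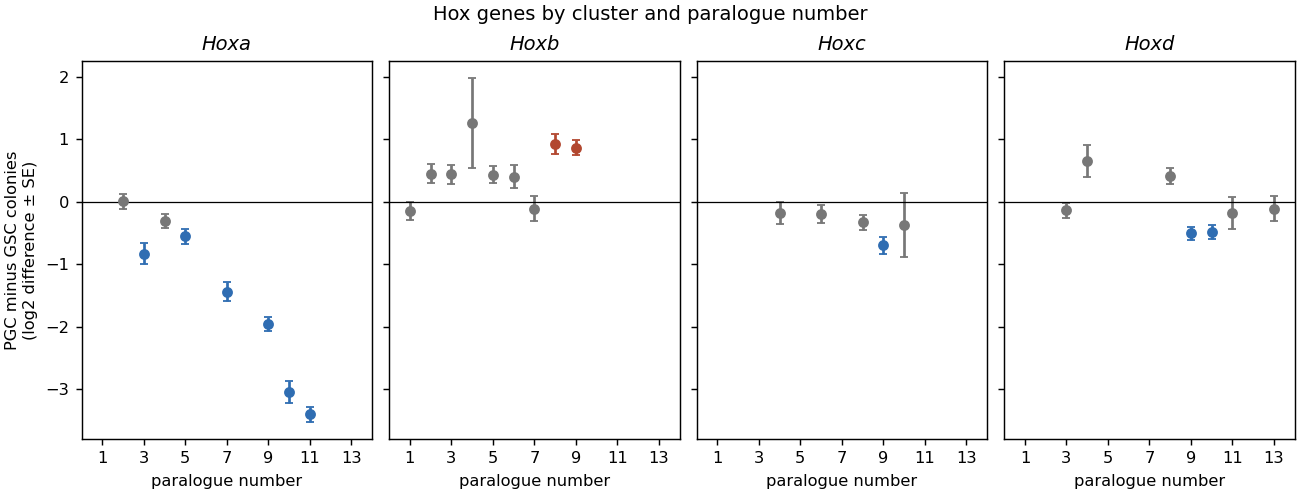
Difference between PGC and GSC colonies (vertical axis, log2, with the SE of the fit as bars) of each tested Hox gene against its paralogue number (horizontal axis), by cluster. Red points were called higher in PGC colonies, blue lower and grey not called; the Hoxa points go from 0.01 at paralogue 2 to -3.41 at paralogue 11.

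Imprinted genes are expressed from the copy of 1 parent, and many of the paternally expressed ones promote growth of the fetus. Of 20 tested paternally expressed genes 7 were higher in PGC colonies and 0 lower, with a median of 0.21. Mest had 15.23 and 15.27 in PGC colonies, 9.83 and 9.99 in GSC colonies and 12.95 and 13.10 in sorted cells, and its probes gave differences of 5.34 and 5.39. Igf2, the fetal insulin-like growth factor, had 17.61 and 17.66 against 13.66 and 13.71, a difference of 3.95 ± 0.11 (adjusted p = 1.9e-05). Dlk1, a transmembrane inhibitor of fat cell differentiation, had 14.88 and 15.17 against 12.53 and 12.52 (difference 2.50 ± 0.14, adjusted p = 0.00015), but a dimmer second probe gave 0.50.

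Of 18 tested maternally expressed genes 3 were higher and 2 lower. The 3 higher members are non-coding RNAs and a ubiquitin ligase subunit. H19, the non-coding neighbour of Igf2, had 16.88 and 17.02 in PGC colonies and 14.41 and 14.28 in GSC colonies, a difference of 2.61 ± 0.12 (adjusted p = 8.4e-05). Meg3, the non-coding neighbour of Dlk1, had 11.12 and 11.29 against 9.75 and 9.60, a difference of 1.53 ± 0.13 (adjusted p = 0.00075). Igf2 with H19 and Dlk1 with Meg3 were thus each higher as a pair, although the members of each pair are expressed from opposite parental copies. Asb4 was at least 5.54-fold higher. Cdkn1c, a growth-restraining cell cycle inhibitor, had 14.20 and 14.16 against 14.87 and 14.86 and was lower by -0.69 ± 0.10 (adjusted p = 0.007), and sorted cells were lower still at 12.70 and 12.65.

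Of 9 tested fetal RNA-binding and growth genes 3 were higher and 0 lower, beside 7.08% and 7.98% of all genes, and 1 was higher without GSC colony replicate 1. Igf2bp3, an RNA-binding protein of fetal tissue, differed by 0.72 ± 0.12 (adjusted p = 0.0097) and the growth regulator Mycn by 0.90 ± 0.15 (adjusted p = 0.013). The call of Igf2bp3 was lost without GSC colony replicate 1 and that of Mycn without PGC colony replicate 2. Lin28b had 8.60 and 8.46 in PGC colonies against 8.39 and 8.32, and Hmga2 had 14.46 and 14.26 against 14.52 and 14.38. Their adjusted p-values were 0.34 and 0.68, with an SE of 0.11 and 0.12.

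Macrophage and leukocyte genes were low in both colony types and higher in PGC colonies. Of 28 tested members 15 were higher and 1 lower, with a median of 0.59, and over the alternative settings 11 to 16 were higher and 1 lower. The summed level of the list was 15.06 and 14.84 in PGC colonies, 14.23 and 13.91 in GSC colonies and 17.82 and 17.83 in sorted cells, and all 15 higher genes were brightest in sorted cells. Tyrobp, a signalling adaptor of myeloid cells, had 9.82 and 9.52 against 6.60 and 6.68 and was at least 3.60-fold higher. Trem2, a lipid receptor of macrophages and osteoclasts, had 11.38 and 11.24 against 8.73 and 8.78, a difference of 2.55 ± 0.11 (adjusted p = 8e-05). Cd68, a lysosomal protein of macrophages, had 11.45 and 11.44 against 9.83 and 9.77, a difference of 1.64 ± 0.11 (adjusted p = 0.00032).

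Not every defining marker followed. Ptprc, the pan-leukocyte antigen CD45, had 9.24 and 9.10 in PGC colonies and 8.96 and 9.05 in GSC colonies (adjusted p = 0.4). Csf1r, the macrophage growth factor receptor, had 8.66 and 8.55 against 8.00 and 8.10, compared with 13.72 and 13.69 in sorted cells. Its difference of 0.56 ± 0.11 (adjusted p = 0.019) lost its call under 6 alternative settings. Cd14, the lipopolysaccharide co-receptor, was the lower member, with 10.05 and 10.18 against 11.29 and 11.30 (difference -1.18 ± 0.11, adjusted p = 0.001).

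Among genes outside this list, Mmp9, a gelatinase that macrophages and osteoclasts can make, had 11.77 and 11.48 in PGC colonies and 8.58 and 8.46 in GSC colonies, a difference of 3.11 ± 0.13 (adjusted p = 7.3e-05). Its sorted level was 9.22 and 9.26. Itgax, the integrin subunit CD11c of dendritic cells and macrophages, had 11.84 and 12.01 against 7.68 and 8.82, a difference of 3.67 ± 0.34 (adjusted p = 0.0012), and its sorted level was 8.12 and 8.03. Sorted cells, the brightest of the 3 groups for the higher leukocyte genes, were thus below the PGC colonies for both. The part of the leukocyte genes in these differences was not tested. Tnfsf11, the osteoclast-inducing cytokine RANKL, had 10.14 and 10.33 against 8.29 and 8.37, and Tnfrsf11b, its soluble decoy receptor, had 10.54 and 10.79 against 12.59 and 12.52. The ligand was thus higher by 1.90 ± 0.13 (adjusted p = 0.00031) and the decoy lower by -1.89 ± 0.12 (adjusted p = 0.0003).

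Complement genes went both ways. Of 16 tested members 4 were higher and 8 lower. The higher members were the C1q chains and the receptor C3ar1, which macrophages make. C1qb had 9.36 and 9.37 in PGC colonies and 7.25 and 7.11 in GSC colonies, at least 2.91-fold higher, and sorted cells were at 14.39 and 14.46. C1qa had 9.70 and 9.84 against 8.26 and 6.56, and its call (adjusted p = 0.026) was lost under 6 alternative settings. Leaving out either PGC colony array gave 2 higher members.

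The lower complement members are plasma-type components and inhibitors that stromal cells can make. Serping1, the C1 inhibitor, had 9.23 and 9.34 in PGC colonies and 13.13 and 13.25 in GSC colonies, a difference of -3.91 ± 0.12 (adjusted p = 2.5e-05). C7, a component of the membrane attack complex, was at 7.69 and 7.50 against 10.92 and 11.15, at least 9.30-fold lower, with -2.49 by its second probe. C2, a protease of the classical pathway, had 9.72 and 9.60 against 12.03 and 11.86, a difference of -2.29 ± 0.12 (adjusted p = 0.00012).

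Fibroblast and matrix genes were bright in both colony types and more often lower in PGC colonies. Of 31 tested fibroblast and mesenchyme genes 3 were higher and 12 lower, with a median of -0.28, and 10 to 14 were lower over the alternative settings. The higher members numbered 1 without either GSC colony array or PGC colony replicate 2. The summed level was 19.83 and 19.80 in PGC colonies, 20.16 and 20.15 in GSC colonies and 18.33 and 18.22 in sorted cells. Lox, which crosslinks collagen, had 10.32 and 10.05 against 14.26 and 14.08, a difference of -3.98 ± 0.14 (adjusted p = 2.8e-05), and its second probe gave -3.52. Postn, the matrix protein periostin, had 15.04 and 14.73 against 17.06 and 17.02, a difference of -2.16 ± 0.14 (adjusted p = 0.00025). Tnc, the matrix protein tenascin C of developing tendon and mesenchyme, went the other way with 14.90 and 15.09 against 12.98 and 12.75 (difference 2.13 ± 0.13, adjusted p = 0.00024).

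Secreted proteases and their inhibitors were more often lower. Of 24 tested matrix proteases 5 were higher and 11 lower, and of 19 protease inhibitors 3 were higher and 9 lower, with medians of -0.78 and -0.73. The inhibitors differed by subgroup. Of 9 TIMPs and serpins 2 were higher and 3 lower, with a median of 0.07. Of 10 cystatins and other inhibitors 1 was higher and 6 lower, with a median of -0.79. Without either sorted or either PGC colony array 1 inhibitor was higher. Mmp3, stromelysin, had 8.56 and 8.70 in PGC colonies and 13.93 and 13.81 in GSC colonies, a difference of -5.24 ± 0.11 (adjusted p = 1.1e-05). Ctsk, the collagen-degrading cathepsin K, had 10.86 and 11.01 against 14.26 and 14.12, a difference of -3.26 ± 0.15 (adjusted p = 9.5e-05). Prss23, a serine protease, fell by 3.35 on the log2 scale by its brighter probe and by 2.15 by the other, which read 8.33 and 8.49 against 10.39 and 10.72. Serpina3n, a serpin of the acute phase response, had 10.54 and 10.82 against 14.18 and 14.06, a difference of -3.43 ± 0.17 (adjusted p = 9.8e-05).

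Small leucine-rich proteoglycans, the collagen-binding decorin family, had 1 of 10 tested members higher and 4 lower. Dcn (decorin) had 17.06 and 16.86 in PGC colonies and 17.91 and 17.91 in GSC colonies (difference -0.95 ± 0.14, adjusted p = 0.0066). The GSC colony values are equal because quantile normalization gives a probe of the same rank the same value, and over the alternative settings the difference was -1.26 to -0.85. Ogn (osteoglycin) was higher by 1.39 ± 0.18 (adjusted p = 0.0039). The lower members numbered 1 without PGC colony replicate 2 and 2 without either GSC colony array. Of 31 basement membrane and integrin genes 3 were higher (1 without either GSC colony array) and 9 lower, with a median of -0.14. Lama5, a laminin chain, was lower by -1.27 ± 0.14 (adjusted p = 0.0026). Itgbl1, an integrin beta-like secreted protein, had 8.36 and 8.43 against 12.04 and 12.15 and was lower by -3.70 ± 0.12 (adjusted p = 2.5e-05).

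Of 25 tested Sertoli cell genes 1 was higher and 5 lower, and of 18 genes of the early gonad and its interstitial progenitors 0 were higher and 4 lower, beside 7.08% and 7.98% of all genes. Gata4, Wt1 and Nr5a1, factors that define the gonadal soma, gave no call: Gata4 had 13.50 and 13.56 in PGC colonies and 13.68 and 13.43 in GSC colonies. Wt1 had 12.37 and 12.59 against 12.33 and 12.23, and Nr5a1 had 12.37 and 12.17 against 12.08 and 12.15. Their adjusted p-values were 0.93, 0.35 and 0.42, and all were brighter in sorted cells, at 14.69 and 14.54 for Wt1 and 14.44 and 14.44 for Nr5a1. Sox9, the factor that starts Sertoli cell differentiation, had 12.04 and 11.85 against 11.60 and 11.65 (adjusted p = 0.12).

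Amh, the Sertoli cell hormone, was near the filter level in both colony types (7.71 and 7.88 in PGC colonies, 7.54 and 6.70 in GSC colonies) against 12.49 and 12.48 in sorted cells. Cldn11, the tight junction protein of Sertoli cells, had 13.78 and 14.17 against 15.52 and 15.81 and was lower by -1.69 ± 0.17 (adjusted p = 0.0018). The lower Sertoli members numbered 1 without GSC colony replicate 2 or PGC colony replicate 2, and 2 without GSC colony replicate 1 or either sorted array. Among interstitial progenitor genes Gata2 had 8.38 and 8.46 in PGC colonies against 11.65 and 11.52, a difference of -3.16 ± 0.11 (adjusted p = 3.3e-05). Its second probe read 8.37 and 8.28 against 9.74 and 9.93, a difference of -1.51. Emx2, a homeobox factor needed for the gonadal ridge, had 10.45 and 10.46 against 11.57 and 11.49 and was lower by -1.08 ± 0.10 (adjusted p = 0.0012).

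Genes of tissues beside the gonad gave mixed counts, to be read beside the 7.08% higher and 7.98% lower of all genes. Of 17 tested mesonephros and kidney progenitor genes 5 were higher and 2 lower, with Gata3 higher by 1.23 ± 0.12 (adjusted p = 0.0015). Of 12 pregranulosa genes, which mark the somatic cells of the early ovary, 3 were higher and 2 lower. The higher ones numbered 1 without GSC colony replicate 1 or PGC colony replicate 1 and 0 without PGC colony replicate 2, and the lower ones 1 in each case. Foxl2, the factor that maintains granulosa identity, had 9.84 and 10.16 in PGC colonies and 10.82 and 10.69 in GSC colonies, and its call (adjusted p = 0.042) was lost under 6 alternative settings. Of 9 Leydig and steroid genes 1 was higher and 2 lower (1 lower whichever single array was left out), and Cyp17a1, the androgen-forming enzyme, had 10.67 and 10.43 against 12.00 and 11.94 (difference -1.42 ± 0.14, adjusted p = 0.0015).

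Over all genes 7.08% were higher and 7.98% lower. Of 20 tested epithelial and mesothelial genes 0 were higher and 6 lower, with a median of -0.11. Msln (mesothelin) read 7.51 and 7.51 in PGC colonies and 11.21 and 11.13 in GSC colonies, at least 10.2-fold lower. Upk1b and Upk3b, uroplakins that mesothelium expresses, were lower by -2.63 ± 0.12 and -1.62 ± 0.13 (adjusted p = 8.4e-05 and 0.00069). Endothelial genes split, with 2 of 20 higher and 4 lower, and leaving out PGC colony replicate 2 left 1 higher and leaving out any other single array left 0. Emcn (endomucin) had 10.79 and 10.87 against 13.61 and 13.59, a difference of -2.77 ± 0.10 (adjusted p = 4.6e-05), and Lyve1, a lymphatic and macrophage receptor, was at least 5.39-fold lower.

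Germ cell genes, which the label of the PGC colonies would place in that group, were not higher there. Of 40 germ cell genes on the array 26 were tested, 0 were higher and 10 lower in PGC colonies, with a median of -0.39, and over the alternative settings 8 to 12 were lower and 0 to 1 higher (14 lower and 1 higher at an unadjusted p under 0.05). Dppa3, Tfap2c and Prdm14, which define primordial germ cells, were under the filter, as were the piRNA pathway gene Piwil4 and the meiotic genes Sycp3 and Stra8. Ddx4, the germ cell helicase, had 9.96 and 9.72 in PGC colonies and 10.24 and 10.27 in GSC colonies (adjusted p = 0.096), and Kit had 9.05 and 9.22 against 9.16 and 8.73 (adjusted p = 0.49). Of the 10 listed specification and migration genes 7 were tested, and 0 were higher and 2 lower. Dppa3, Tfap2c and Prdm14 thus did not pass the filter, while Ddx4 and Kit were above its level in both colony types. The label PGC colony is used here for the source and the culture, and which cells the colonies hold was not tested.

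Of the 10 lower germ cell genes 3 belong to RNA regulation and the piRNA pathway, 2 to specification and migration and 5 to meiosis and other roles. Dazl, an RNA-binding protein that licenses germ cell differentiation, had 7.42 and 7.51 in PGC colonies and 10.09 and 10.12 in GSC colonies, at least 4.87-fold lower. Mael, a piRNA pathway protein, had 7.95 and 7.96 against 9.93 and 10.06, a difference of -2.04 ± 0.11 (adjusted p = 0.00013). Tex11, a meiotic crossover gene on the X chromosome, had 7.47 and 7.44 against 9.36 and 9.34, at least 2.89-fold lower. All 3 were brighter in GSC colonies than in the uncultured sorted cells, which read 8.88 and 8.92 for Mael. The summed level of the tested list was 16.46 and 16.42 in PGC colonies and 16.92 and 16.80 in GSC colonies. In sorted cells it was 15.44 and 15.25, below both colony types. The brightest members dominate this sum too, and the median level of the members gave another order. It was 9.20 in PGC colonies, 9.52 in sorted cells and 9.68 in GSC colonies.

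Stem cell markers gave calls in both directions. Of 29 tested spermatogonial genes 3 were higher and 5 lower, beside 7.08% and 7.98% of all genes, with a median of 0.13. The lower genes numbered 2 without either GSC colony array and 3 without either sorted array. Zbtb16 (PLZF), a repressor that maintains spermatogonial stem cells, was at 6.90 and 7.36 in PGC colonies against 10.47 and 10.43, at least 6.18-fold lower, but also at 7.07 and 7.09 in sorted cells. Id4, an inhibitor of differentiation that marks spermatogonial stem cells, had 10.69 and 10.33 against 8.02 and 8.20, a difference of 2.40 ± 0.15 (adjusted p = 0.00025). Of 17 pluripotency genes 1, Sox2, was higher and 4 were lower. Pou5f1, the pluripotency and germ cell factor, had 8.26 and 8.16 against 9.34 and 9.35, a difference of -1.13 ± 0.11 (adjusted p = 0.0012).

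Of 6 tested sex-linked genes 1 was higher and 1 lower. Xist, the RNA that coats an inactive X chromosome, had 8.84 and 8.75 in PGC colonies, 7.76 and 7.87 in GSC colonies and 8.20 and 8.11 in sorted cells, a difference of 0.98 ± 0.11 (adjusted p = 0.0024). All 4 tested Y-linked genes had lower means in PGC colonies. Eif2s3y, the brightest, had 11.44 and 11.10 against 11.99 and 12.32 and was lower by -0.89 ± 0.17 (adjusted p = 0.017, lost without PGC colony replicate 2). Uty was at -0.43 ± 0.12 (adjusted p = 0.058), Usp9y at -0.29 ± 0.14 (adjusted p = 0.22) and Kdm5d at -0.24 ± 0.11 (adjusted p = 0.2). The share of female embryos in the pool is not in the labels.

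The Hedgehog, Notch and Wnt pathways, which pattern the embryo, had more members higher than lower. In the Hedgehog pathway 5 of 12 tested genes were higher and 0 lower, and none of the 3 ligands was called. Hhip, a target that binds and limits Hedgehog ligands, had 9.29 and 9.63 in PGC colonies and 8.25 and 8.02 in GSC colonies, a difference of 1.33 ± 0.18 (adjusted p = 0.0053). Gli1, the transcription factor and target of the pathway, had 11.01 and 11.06 against 9.36 and 10.01, a difference of 1.35 ± 0.21 (adjusted p = 0.0094), a call lost without either PGC colony array. The count fell to 3 without GSC colony replicate 1, to 2 without GSC colony replicate 2 or PGC colony replicate 1, and to 1 without PGC colony replicate 2.

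In the Notch pathway 5 of 15 tested genes were higher and 1 lower. The ligand Jag1 had 12.48 and 12.65 in PGC colonies and 11.29 and 11.17 in GSC colonies, the receptor Notch1 had 13.58 and 13.19 against 12.20 and 12.23, and the target Heyl had 11.23 and 11.35 against 10.10 and 10.22. Ligand, receptor and target were thus all higher, by 1.33 ± 0.12, 1.17 ± 0.15 and 1.13 ± 0.11 (adjusted p = 0.0011, 0.0046 and 0.0015). Hey2, another target, was lower by -0.62 ± 0.12 (adjusted p = 0.019), a call lost under 3 alternative settings.

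In the Wnt pathway 13 of 38 tested genes were higher and 3 lower, with a median of 0.25, and without either PGC colony array the higher genes numbered 8. The largest rises were of secreted inhibitors. Sfrp2 had 11.32 and 11.71 in PGC colonies and 9.28 and 9.13 in GSC colonies (difference 2.31 ± 0.15, adjusted p = 0.00031), and Wif1 had 9.88 and 10.23 against 8.12 and 7.92 (difference 2.04 ± 0.19, adjusted p = 0.0012). The related inhibitors Sfrp4 and Sfrp1 were lower, by -1.40 ± 0.13 and -0.90 ± 0.14 (adjusted p = 0.001 and 0.0089). The ligand Wnt6 had 12.69 and 12.93 against 11.32 and 11.30, and sorted cells were brighter than both at 15.50 and 15.30.

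The TGF-beta and BMP pathway had 7 of 39 tested genes higher and 9 lower. Among the receptors Acvrl1, the endothelial type I receptor ALK1, had 10.81 and 11.00 in PGC colonies and 14.05 and 13.61 in GSC colonies, a difference of -2.92 ± 0.17 (adjusted p = 0.00022). Tgfbr2, the receptor that binds TGF-beta itself, had 14.17 and 14.52 against 16.58 and 16.30, a difference of -2.10 ± 0.20 (adjusted p = 0.0013). Among ligands Gdf10 had 10.91 and 11.03 against 14.04 and 13.86 (difference -2.98 ± 0.12, adjusted p = 5.2e-05), while Bmp5 had 10.30 and 10.71 against 8.77 and 8.32 (difference 1.97 ± 0.21, adjusted p = 0.002) and Tgfb1 was higher by 1.01 ± 0.12 (adjusted p = 0.0027). Without single arrays the higher genes numbered as few as 3 (GSC colony replicate 1 or either sorted array) or 2 (PGC colony replicate 2).

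In the FGF pathway 5 of 17 tested genes were higher and 3 lower: Fgf1 was higher by 1.42 ± 0.12 (adjusted p = 0.00091) and the feedback phosphatase Dusp6 by 1.17 ± 0.13 (adjusted p = 0.0024), and Fgf10, a mesenchymal ligand, was lower by -0.90 ± 0.11 (adjusted p = 0.0038). The lower FGF pathway genes numbered 1 without either GSC colony array or either sorted array. In the IGF axis 3 of 20 were higher and 1 lower, with 1 higher and 2 lower without GSC colony replicate 1 and 5 higher without PGC colony replicate 1. Igfbp6, a binding protein with preference for IGF2, had 11.86 and 12.23 in PGC colonies and 14.49 and 14.42 in GSC colonies, a difference of -2.40 ± 0.15 (adjusted p = 0.00024), the opposite direction to Igf2. Igf1r had 12.34 and 12.53 against 12.66 and 12.55 (adjusted p = 0.41). Of 10 EGF and ErbB genes 2 were lower, among them the feedback inhibitor Errfi1 (-1.46 ± 0.16, adjusted p = 0.0023). Beside these counts, 7.08% of all genes were higher and 7.98% lower.

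Of 23 tested axon guidance genes 9 were higher and 3 lower, with a median of 0.56, and the higher genes numbered 5 without GSC colony replicate 2 or PGC colony replicate 2. The ephrin receptor Epha3 had 12.02 and 12.35 against 10.64 and 10.31, a difference of 1.71 ± 0.29 (adjusted p = 0.013), a call lost without either PGC colony array. Of 13 retinoic acid genes 3 were higher and 2 lower, and 1 was higher without GSC colony replicate 2, PGC colony replicate 2 or either sorted array. Aldh1a3, a retinoic acid forming enzyme, was higher by 1.09 ± 0.11 (adjusted p = 0.0015). Dhrs3, which turns retinal back to retinol, was lower by -0.85 ± 0.11 (adjusted p = 0.0048).

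Interferon response genes were lower in PGC colonies. Of 21 tested members 0 were higher and 11 lower, with a median of -0.52, and over the alternative settings 8 to 13 were lower and 0 higher (15 lower and 0 higher at an unadjusted p under 0.05). Ifi27l2a, an interferon-induced mitochondrial protein, had 8.50 and 8.55 in PGC colonies and 10.41 and 10.60 in GSC colonies, a difference of -1.98 ± 0.11 (adjusted p = 0.00019). Gbp3, an interferon-induced GTPase, was lower by -1.27 ± 0.13 (adjusted p = 0.0016), and Rtp4 by -1.19 ± 0.13 (adjusted p = 0.0024). However, the dimmer second probe of Rtp4 gave -0.20. Inflammatory signals were also more often lower, with 8 of 22 tested members against 3 higher. Socs3, a feedback inhibitor of cytokine receptors, had 13.10 and 12.63 against 14.53 and 14.49 (difference -1.65 ± 0.18, adjusted p = 0.0024), and the alarmin Il33 was higher by 1.45 ± 0.13 (adjusted p = 0.00094). Of 19 chemokine genes 5 were higher (3 without PGC colony replicate 2) and 2 lower, the ligand Cx3cl1 rising by 1.47 ± 0.12 (adjusted p = 0.0006).

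Antioxidant genes had 8 of 35 tested members lower and 3 higher, and 1 was higher when any single array but GSC colony replicate 2 was left out. The largest falls were of secreted or metal-binding proteins. Selenop, the plasma selenium carrier, had 13.32 and 13.51 in PGC colonies, 16.82 and 16.79 in GSC colonies and 16.18 and 16.20 in sorted cells, a difference of -3.39 ± 0.11 (adjusted p = 2.8e-05). Mt2, a metallothionein, had 13.09 and 13.35 against 16.89 and 16.86, a difference of -3.65 ± 0.13 (adjusted p = 3.1e-05). Gpx3, a secreted glutathione peroxidase that also contains selenium, was at 11.64 and 11.73 against 17.22 and 17.18. Selenium was supplied in the medium of both groups.

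Among metabolic lists, cholesterol and fatty acid synthesis had 7 of 20 tested genes lower and 0 higher, with a median of -0.37. Idi1, an enzyme of isoprenoid synthesis, had 10.29 and 10.14 in PGC colonies and 11.98 and 11.99 in GSC colonies (difference -1.77 ± 0.11, adjusted p = 0.00023), and Insig1, a sterol sensor, was lower by -1.26 ± 0.14 (adjusted p = 0.0021). Fdft1, the squalene synthase, gave -1.13 by its brighter probe and -0.22 by the other. Lysosome genes had 6 of 25 lower and 2 higher, and the lower genes numbered 11 under median centring or with no normalization between arrays. The amino acid response had 4 of 18 higher and 0 lower, 1 without GSC colony replicate 1 and 2 without the first sorted array. The 33 respiratory chain genes had 1 in each direction, and of 18 endoplasmic reticulum chaperone genes 0 were called by limma, with 2 higher and 0 lower at an unadjusted p under 0.05.

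Both groups grew at the same oxygen level. Of 30 tested hypoxia target and glycolysis genes 1 was higher and 5 lower, beside 7.08% and 7.98% of all genes. Of 11 genes of HIF and oxygen sensing 0 were higher and 2 lower, and of 11 glycolysis genes 0 were called (2 higher and 2 lower at an unadjusted p under 0.05). Adm, the vasodilator adrenomedullin, had 8.50 and 8.77 in PGC colonies and 11.28 and 11.24 in GSC colonies, a difference of -2.62 ± 0.14 (adjusted p = 0.00017). P4ha2, a collagen hydroxylase, was lower by -1.45 ± 0.12 (adjusted p = 0.00069) and Bnip3, a mitophagy receptor, by -0.96 ± 0.13 (adjusted p = 0.0052). Leaving out 1 array (GSC colony replicate 1, PGC colony replicate 1 or either sorted array) brought the lower genes to 3. Epas1, the oxygen-sensing factor HIF-2 alpha, had 10.89 and 10.37 against 14.39 and 14.46, a difference of -3.80. Its dimmer second probe gave -0.72, with 7.50 and 8.12 in PGC colonies, near the filter level, against 8.99 and 8.06.

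Of 28 tested mitosis genes 0 were higher and 1 lower, and of 23 DNA replication genes 3 were higher and 1 lower. Over all genes 7.08% were higher and 7.98% lower. The higher replication genes numbered 0 to 6 over the alternative settings: 0 without GSC colony replicate 1, PGC colony replicate 2 or either sorted array, 1 without GSC colony replicate 2 or under median centring, and 6 with a trended, robust variance model. The lower replication gene was Rrm2, a ribonucleotide reductase subunit, with 11.90 and 11.32 in PGC colonies and 14.07 and 14.23 in GSC colonies (difference -2.54 ± 0.21, adjusted p = 0.00074), while sorted cells were at 12.25 and 12.00. Cdkn2a, the locus of the p16 and p19 inhibitors, had 10.11 and 10.07 against 9.20 and 9.23 and was higher by 0.88 ± 0.10 (adjusted p = 0.0029). Its neighbour Cdkn2b had 13.92 and 14.17 against 11.88 and 12.85 and was higher by 1.68 ± 0.30 (adjusted p = 0.015), compared with 8.66 and 8.48 in sorted cells. This call was lost without either PGC colony array, and over the alternative settings the difference was 1.19 to 2.15.

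**Figure D5:**
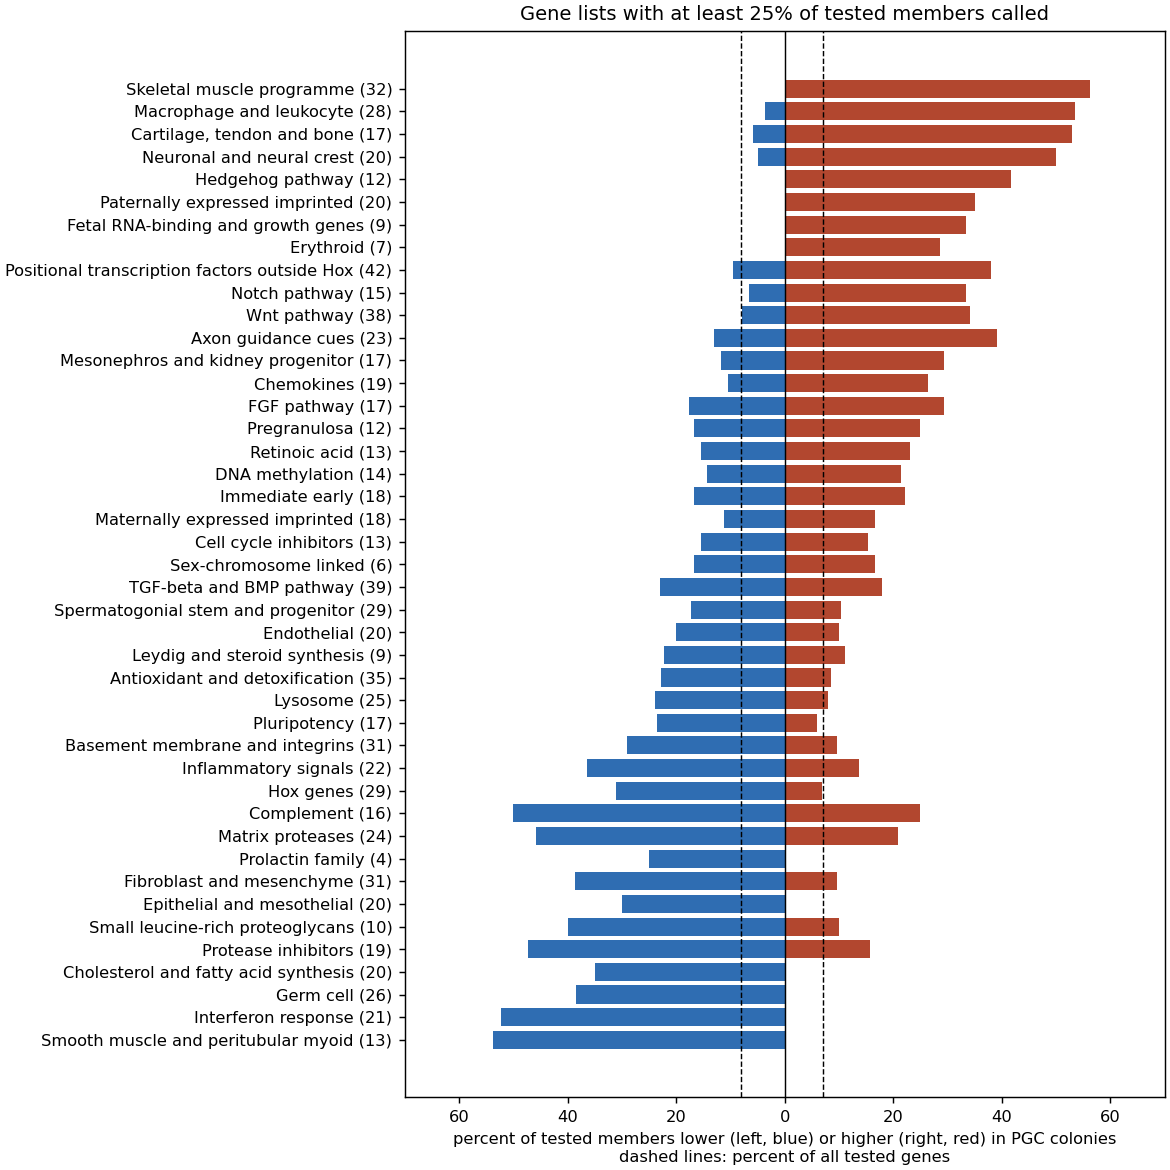
Share of the tested members of each gene list that was called higher (right, red) or lower (left, blue) in PGC colonies, in percent, with the number of tested members in brackets and dashed lines at the shares over all genes (7.08% and 7.98%). The 43 lists with at least 25% of tested members called are drawn; striated muscle, leukocyte, skeletal tissue and neural lists lean to the right, and smooth muscle, interferon and germ cell lists to the left.

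The uncultured sorted cells placed the differences against testicular cells at the age of the GSC colonies. No test was made with them. Over all 15459 genes the mean of sorted cells was nearer to GSC colonies for 47.9%. Of the 312 genes at least 2-fold higher in PGC colonies, 200 (64.1%) had sorted cells nearer to GSC colonies, among them Zic1, Myl1 and Dlk1. In 80 (25.6%, against 41.6% of all genes) sorted cells were above both colony types, as for Ctss and Trem2. In 139 (44.6%, against 39.2% of all genes) they were below both. Both sorted arrays were under the filter level for 64 of the 312 genes.

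For the 487 genes at least 2-fold lower in PGC colonies, sorted cells were nearer to GSC colonies for 140 (28.7%). They were nearer to PGC colonies for the other 347. In both gene sets sorted cells were thus more often nearer to the dimmer colony group. The genes were selected for a difference between the colony groups, so these shares cannot tell which colony type the sorted cells resemble. Sorted cells were below both colony types for 233 genes (47.8%, against 39.2% of all genes), as for Mmp3, Hoxa11, Lox and Postn. They were above both for 76 (15.6%, against 41.6% of all genes), as for Cst12, Lyve1 and Cyp17a1. Both sorted arrays were under the filter level for 79 of the 487 genes. The genes that separate the colonies thus include genes high in the uncultured sorted cells, such as Selenop and Tex19.2, and genes that were low there, such as Prl8a2 (7.11 and 7.29).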

How the data were processed

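The authors deposited linear probe intensity of 26423 probes on 6 Cy5 arrays, with some values under 0 on 4 arrays. How it was scanned, background-corrected and scaled is not given in the sources used here. Probes were named through the platform's probe table (21876 with 1 symbol, 0 with several, 4547 with none), and 21825 Entrez identifiers were found in RefSeq (GRCm38.p6).

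Values were corrected with normexp (offset 50), put on the log2 scale and quantile normalized. Normexp was placed there because values under 0 have no logarithm. A gene with several probes took the probe with the highest mean. Genes with at least 2 of 6 arrays at or above the 30th percentile (7.82) were tested, 15459 in all. In R 4.3.3, limma 3.58.1 fitted a mean per group to all 6 arrays with no block (3 residual degrees of freedom, median SE 0.134), so the sorted arrays share the estimate of spread. Median deposited intensity was 541 to 606 on the colony arrays and 393 and 406 on the sorted ones. Precision is limited by how few arrays there are. The labels give no batch or scan date.

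The comparison and the 56 gene lists (1265 entries on the array) were chosen with earlier results of these data known, so lists are described by counts and medians with no set test. Genes were named by rule: the 15 largest rises and falls among called genes whose colony arrays did not overlap, up to 3 called members of each list in each direction, and a fixed set of gonad and germ cell genes. Myog, Myod1, Csf1r, Ptprc, Cd68, Isl1, Hoxa7 and Hoxa5 were named after their values were seen. The fold of a gene with both arrays of the dimmer group under the filter level is the brighter mean over that level.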

Additional observations from a re-analysis of the deposited data

Results flagged for a closer look

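Probes without a gene symbol took no part in the comparison. Of 4547 such probes 2295 passed the same filter rule. A separate limma fit, with each probe of the array as its own unit, called 97 higher and 78 lower in PGC colonies (25 and 34 of them by at least 2-fold). These were singled out because they show differences in data that the report did not use. Their share called was 7.63%, counted per probe. The 15.1% of named genes counts each gene by its brightest probe, so the shares are not like for like. The probes without a symbol cannot be named here, and what they measure was not examined.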

How the results depend on the processing

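The main counts were 1095 genes higher and 1234 lower. With only the 4 colony arrays in the fit 698 genes were higher and 931 lower. Leaving out 1 of the 6 arrays gave 620 to 1118 higher genes and 781 to 1067 lower genes; fewer arrays leave fewer degrees of freedom. With no normalization between arrays the counts were 920 and 1405, so that 39.6% of called genes were higher against 47% in the main result. Settings of background, filter, probe choice and variance model kept both counts within 1.5 times. Of 252 named genes 236 were called. Of these 166 kept the call in every alternative in which they were tested, 15 lost it in 1 or 2 and 55 in 3 or more, and 0 changed direction. Some were not tested in all 17 alternatives, such as Acta1, tested in 15, and Nefl, tested in 14.

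Replicate numbers in the labels do not say that arrays are paired, and the deviations of the replicate 1 arrays of both colony groups correlated at -0.18 over genes. With the replicate number as a block 755 genes were higher and 952 lower. With the GSC colony numbers crossed, an alternative chosen after seeing the data, they were 1264 and 1439. Dim genes are limited by signal over background: 3625 genes on the array were not tested.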
